A study of Mus musculus with 11 samples.

Results

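The genes described here encode enzymes of detoxification and xenobiotic metabolism, and were chosen by symbol. Members were all genes whose symbol in the platform annotation starts with Cyp followed by a number, Gst, Ces, Aldh, Adh followed by a number, Ugt, Sult, Akr, Fmo or Gpx. This gave 39 of the 7114 named genes. There were 10 Aldh, 9 Gst, 7 Cyp, 7 Akr, 3 Gpx and 2 Ces genes and 1 Adh gene, and 0 named Fmo, Ugt or Sult genes. Probe sequences were not analysed here, so for close relatives such as the mu-class Gst, the Akr1c and the Ces1 genes it is not known how far a probe reads 1 transcript alone.

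Detoxification proceeds in steps. Cytochromes P450, carboxylesterases and the aldehyde, alcohol and aldo-keto oxidoreductases expose or remove reactive groups on lipophilic compounds, and transferases such as the glutathione S-transferases (GSTs) then attach a soluble group for export. Liver is the main site, with kidney and lung as further sites, while glutathione peroxidases remove peroxides in most cells. Many of these genes are known targets of the aryl hydrocarbon receptor or of the oxidative stress factor NRF2.

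The RNA came from 11 mouse samples, with 1 array for each label and no replicates, set against a mouse embryo reference RNA that all 11 share. Each sample's own RNA carried Cy3 and the reference Cy5. Arrays labelled D6_MEL, NRAS_MEL, HRAS_MEL and Melan A were taken as melanocyte lines, with MEL read from the series title, and 3T3 and VA_MEF as fibroblast lines. The 4 organ labels are Heart, Kidney, Liver and Lung, and the labels do not say what cells VA_475 holds. The descriptions give D6_MEL and NRAS_MEL a common code, with Nras added for the latter, and HRAS_MEL another code, so that D6_MEL is not stated to be its parent. Strain, age, sex, passage, the RAS alleles and how they were introduced are not in the labels, and it is not stated whether a line is 1 clone or an organ 1 animal.

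Values are log2 ratios of own RNA over reference, with each array centred on its median, so that 1 unit is 2-fold. The deposited table states neither the direction nor the log base. Base 2 was assumed, and the deposited sign was turned because organ markers then stand high in 1 array and low elsewhere. As deposited, the most extreme array of the liver, lung, heart and kidney lists stood at -8.36, -7.79, -4.55 and -5.81 relative to the median array. This direction is likely, not stated. The titles name the sample before the reference, which read as a ratio runs the other way, and in that case every sign below would turn.

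Markers went against several labels. The liver list (3 of its 18 genes measured: Alb, Ttr and Apoa1) had its highest median, 2.54, in the array labelled Lung, while the one labelled Liver had -5.25. The lung list (2 of 12, Sftpd and Lyz2) was highest in the array labelled Liver, at 5.96. The heart list (2 of 14, Nppb and Fabp3) peaked in the Melan A array, at 3.77, while the Heart array had -0.96. The kidney list (3 of 14) peaked under its own label, at 5.60. Of the 16 melanocyte genes 5 were measured (Mlph, Rab38, Rab27a, Kit and Ednrb), and their median was highest in VA_MEF, at 0.71, where the fibroblast median (9 of 12 genes) was -2.49. In D6_MEL, NRAS_MEL, HRAS_MEL and Melan A the melanocyte medians were -0.59, -0.50, -0.99 and -1.17, so the list's median did not set the arrays labelled as melanocytes above the others. Its genes differed. Mlph stood at 3.18 in D6_MEL, 2.55 in NRAS_MEL, 2.36 in HRAS_MEL, 3.06 in VA_MEF and 2.94 in the Heart array. In the rest Mlph lay between -0.71 (3T3) and 0.57 (Kidney), with Melan A at -0.06. Rab38 was highest in VA_MEF, at 3.40. Rab27a, Kit and Ednrb were highest in the array labelled Liver, at 1.16, 0.41 and 0.36. Arrays are therefore named by their labels throughout, and none was moved to another group.

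The promoters of 3 mu-class GST genes and of the aldo-keto reductase Akr1b8 are shown first. Gstm1, Gstm2 and Gstm6, which lie near each other on chromosome 3, varied together over the arrays and were the 3 mu-class genes farthest apart between HRAS_MEL and D6_MEL. Akr1b8 stood highest in the same 7 arrays in which the carboxylesterases were lowest. Sequences are from RefSeq, build GRCm38.p6, and run 5′ to 3′ on the gene's strand, mostly upstream of the annotated start and a short way past it. Capitals mark the core of the xenobiotic response element, GCGTG, which the aryl hydrocarbon receptor binds. Gstm1 is chr3:108017924-108018223 (minus strand), Gstm2 chr3:107986371-107986670 (minus strand), Gstm6 chr3:107953417-107953716 (minus strand) and Akr1b8 chr6:34353896-34354195 (plus strand).
Gstm1 promoter: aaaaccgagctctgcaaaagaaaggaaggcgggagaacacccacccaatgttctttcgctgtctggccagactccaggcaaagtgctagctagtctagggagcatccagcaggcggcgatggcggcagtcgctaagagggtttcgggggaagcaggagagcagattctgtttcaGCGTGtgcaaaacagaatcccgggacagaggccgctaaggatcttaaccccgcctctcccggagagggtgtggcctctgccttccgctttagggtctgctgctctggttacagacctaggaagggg
Gstm2 promoter: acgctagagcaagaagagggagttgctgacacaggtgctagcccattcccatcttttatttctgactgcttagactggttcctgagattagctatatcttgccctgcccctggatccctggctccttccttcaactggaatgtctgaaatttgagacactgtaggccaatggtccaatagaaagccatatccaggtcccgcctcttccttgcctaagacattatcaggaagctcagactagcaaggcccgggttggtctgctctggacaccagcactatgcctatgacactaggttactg
Gstm6 promoter: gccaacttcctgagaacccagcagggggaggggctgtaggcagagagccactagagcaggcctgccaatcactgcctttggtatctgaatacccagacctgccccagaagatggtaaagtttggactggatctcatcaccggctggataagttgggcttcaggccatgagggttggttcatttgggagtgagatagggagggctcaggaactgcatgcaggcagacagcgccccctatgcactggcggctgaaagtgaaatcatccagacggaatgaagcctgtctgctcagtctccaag
Akr1b8 promoter: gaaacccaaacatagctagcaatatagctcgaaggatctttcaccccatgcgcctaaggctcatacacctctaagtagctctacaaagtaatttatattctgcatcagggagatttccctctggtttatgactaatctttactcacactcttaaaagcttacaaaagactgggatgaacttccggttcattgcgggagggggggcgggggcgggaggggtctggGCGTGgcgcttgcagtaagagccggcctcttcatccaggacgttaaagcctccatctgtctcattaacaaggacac

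GCGTG was found once in the Gstm1 and once in the Akr1b8 window, and not in those of Gstm2 and Gstm6. Searched on both strands, it lay in 32.4% of the 32851 windows in the RefSeq promoter table and in 17 of the 42 windows of the 30 members listed there. The core of the antioxidant response element, TGACNNNGC, which NRF2 binds and whose last letters can be shared with the start of GCGTG, was in none of these 4 windows. It lay in 12.4% of all windows and in 6 of the 42 member windows, among them those of Gstm5, Gstm7 and Akr1c19. These matches describe letters in a short window only.

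The members varied more across the arrays than most genes. Of the 37 members with a value on all 11 arrays, 29 spanned at least 2 log2 units, against 33.1% of 7035 genes, and 14 spanned at least 4, against 6.91%. Their median range was 3.24, against 1.54 over all genes. The highest of the 11 values lay in the array labelled Lung for 18 of the 37, against 12.5% of all genes, and in Kidney for 5, against 8.94%. It lay in NRAS_MEL for 1 member, against 6.1% of genes, and for 0 members in D6_MEL (4.83%) and HRAS_MEL (6.1%). With the sign turned back, the highest values would be those that are lowest here, which lay in the array labelled Lung for 3 of the 37 (12.6% of genes) and most often in Heart, for 7 (7.31%). In bulk RNA, fewer cells of a type and less RNA per cell cannot be told apart.

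**Figure D1:**
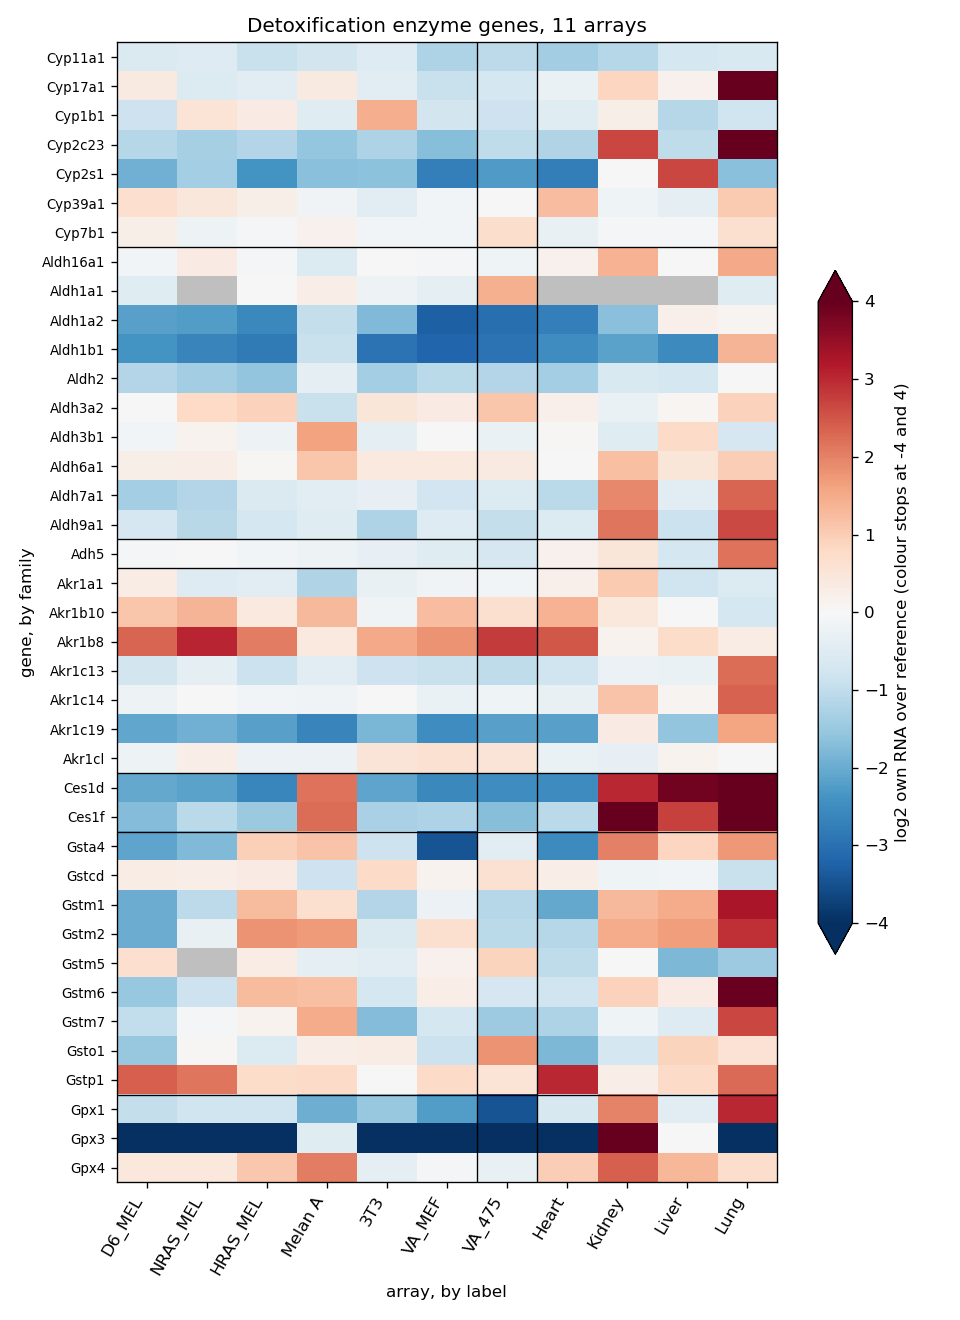
Levels of the 39 members (rows, by family) in the 11 arrays (columns, by label), as log2 of own RNA over reference, with red above and blue below the reference, grey for no value, and colours that stop at -4 and 4. Ces1d, Ces1f and Gpx3 show the widest ranges, and the column labelled Lung holds 18 of the 37 highest and 3 of the 37 lowest values, which would trade places if the sign ran the other way.

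In the array labelled Lung, which carried the liver markers, 20 of 39 members stood at least 2-fold above the reference, against 9.6% of genes, and 3 stood 2-fold below, against 12.7%. Kidney had 15 of 38 members 2-fold above, against 8.81%, and 3 below, against 10.6%. In D6_MEL 3 of 39 were 2-fold above (4.61% of genes) and 15 were 2-fold below (10.1%). In 3T3 the counts were 2 above (2.63%) and 13 below (10.1%). HRAS_MEL had 5 above (4.09%) and 9 below (10.4%), and the Heart array 4 of 38 above (5.84%) and 17 below (11.1%). NRAS_MEL had 3 of 37 above (4.79%) and 13 below (11.4%), VA_MEF 2 above (5.05%) and 12 below (14.9%), and VA_475 4 above (5.49%) and 15 below (13.3%). The array labelled Liver had 6 of 38 above (6.12%) and 5 below (6.57%), and that labelled Melan A 10 above (10.8%) and 5 below (13%).

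Carboxylesterases hydrolyse ester drugs and stored lipid, and Ces1d and Ces1f are abundant in liver. Ces1d stood at 4.79 in the array labelled Lung, 3.87 in Liver, 3.02 in Kidney and 2.17 in Melan A. It was between -2.60 and -2.06 in the other 7 arrays, the one labelled Heart included, at -2.52. Ces1d thus fell into 4 high arrays and 7 low ones with a gap between them.

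Ces1f divided the arrays the same way, at 6.0 in the array labelled Lung, 4.15 in Kidney, 2.74 in Liver and 2.25 in Melan A, and between -1.75 and -1.08 in the other 7. The Pearson correlation of the pair was 0.970 over the 11 arrays, which share 1 reference RNA. The 4 high arrays are those with the highest medians of the lung, heart, kidney and liver lists, and they also had the highest blood list medians (2 of 5 genes, Hbb-b1 and Alas2), from -3.20 to -0.04 against -7.14 to -6.26 in the other 7. The macrophage list (2 of 8 genes, Lyz2 and Laptm5) divided the arrays alike by its median, but with a narrow gap. That median ran from -1.14 to 4.04 in these 4 and from -3.44 to -1.68 in the other 7. Lyz2 alone did not divide them, at -0.94 in the Heart array and -1.43 in Kidney. Laptm5 did so closely, at -0.84 in Kidney and -0.95 in NRAS_MEL. The part of blood, macrophages or other cells in the Ces1d and Ces1f values was not tested.

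Cytochromes P450 oxidise drugs, steroids and lipids, and the members differed in where they were highest. Cyp2c23, which makes epoxides of arachidonic acid, stood at 5.47 in the array labelled Lung and 2.67 in Kidney, and between -1.69 and -1.01 in the other 9, those labelled Liver (-1.01), Heart (-1.21) and Melan A (-1.55) included. Cyp17a1, a hydroxylase of steroid hormone synthesis, was at 4.05 in the array labelled Lung, with Kidney next at 0.86 and the lowest value, -0.88, in VA_MEF, and it correlated with Cyp2c23 at 0.915 over the 11 arrays. Cyp2s1, a P450 known from airway and other epithelia, was at 2.67 in the array labelled Liver, which carried the lung markers, and next highest in Kidney at -0.02, with the other 9 from -2.78 to -1.37.

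Cyp1b1, an aryl hydrocarbon receptor target found mostly outside the liver, was highest in 3T3 at 1.44, followed by NRAS_MEL at 0.54, HRAS_MEL at 0.34 and Kidney at 0.24. It was below the reference in the other 7, down to -1.13 in the array labelled Liver. Cyp39a1 and Cyp7b1, hydroxylases of oxysterols, spanned 1.65 and 0.99. The highest Cyp39a1 values were 1.22 in the array labelled Heart and 1.05 in Lung, and those of Cyp7b1 were 0.70 in VA_475 and 0.63 in Lung. Cyp11a1, which starts steroid hormone synthesis, spanned 0.86, and its 2 probes disagreed: the first lay between 0.10 and 1.45 and the other between -2.94 and -1.43, so its mean shows neither.

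Aldehyde dehydrogenases oxidise aldehydes to acids. Aldh9a1, of carnitine synthesis, stood at 2.63 in the array labelled Lung and 2.14 in Kidney, and between -1.23 (3T3) and -0.48 (Melan A) in the other 9. Aldh7a1, of lysine breakdown, was at 2.33 and 1.92 in the same arrays and between -1.37 (D6_MEL) and -0.34 (3T3) elsewhere. Aldh16a1 was at 1.52 and 1.40 there and between -0.55 and 0.33 elsewhere. These genes shared a pattern in which the arrays labelled Lung and Kidney stood apart from the rest.

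Aldh1b1, a mitochondrial acetaldehyde dehydrogenase, was above the reference only in the array labelled Lung, at 1.37, with Melan A next at -0.90 and the other 9 from -3.16 to -2.15. Aldh2, the main mitochondrial acetaldehyde dehydrogenase, had a smaller span, from -1.59 in HRAS_MEL to 0.01 in the array labelled Lung. Aldh1a2, which makes retinoic acid, stood at 0.22 in the array labelled Liver, 0.10 in Lung, -0.94 in Melan A and -1.68 in Kidney, and between -3.25 (VA_MEF) and -1.76 (3T3) in the rest. All 11 Aldh1a2 values but those labelled Liver and Lung lay below the embryo reference.

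Aldh3b1 peaked in the Melan A array, at 1.60, followed by Liver at 0.76. Aldh3a2, which oxidises fatty aldehydes, had its highest value in VA_475, at 1.10, with Lung at 0.94, HRAS_MEL at 0.92 and NRAS_MEL at 0.79, and its lowest in Melan A, at -0.89. Aldh6a1, of valine breakdown, ranged from -0.01 in the array labelled Heart to 1.20 in Kidney, with Melan A at 1.12. Aldh1a1, another retinaldehyde dehydrogenase, had a value on 7 arrays only, and was highest in VA_475 at 1.41.

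Adh5, the alcohol dehydrogenase that clears formaldehyde with glutathione, was at 2.18 in the array labelled Lung and 0.47 in Kidney, with the other 9 between -0.70 and 0.16. Aldo-keto reductases turn carbonyls into alcohols, and the 3 Akr1c genes measured here, which act on steroids and other ketones, shared that order. Akr1c13 stood at 2.23 in the array labelled Lung with Kidney next at -0.23, Akr1c14 at 2.34 with Kidney at 1.13, and Akr1c19 at 1.58 with Kidney at 0.34. Correlations among the 3 were 0.863 to 0.981 over the 11 arrays. Akr1a1, aldehyde reductase, was highest in Kidney at 1.06 and lowest in Melan A at -1.21. Its 2 probes had the same extremes but disagreed elsewhere. They stood at -1.335 and 0.28 in NRAS_MEL, against 0.35 and 0.23 in D6_MEL.

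Akr1b8 and Akr1b10, relatives of aldose reductase, ran in another order. Akr1b8 stood at 3.03 in NRAS_MEL, 2.80 in VA_475, 2.47 in the array labelled Heart, 2.31 in D6_MEL, 2.04 in HRAS_MEL, 1.80 in VA_MEF and 1.53 in 3T3. It stood at 0.72 in Liver, 0.40 in Melan A, 0.31 in Lung and 0.15 in Kidney. The 7 arrays with high Akr1b8 are the same 7 in which Ces1d and Ces1f were low. Akr1b10 was highest in the array labelled Heart at 1.39 and NRAS_MEL at 1.35, but Melan A, at 1.28, was also high, and the lowest was Lung at -0.70. Akr1cl spanned 0.95.

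GSTs join glutathione to electrophiles. Gstm1 stood at 3.28 in the array labelled Lung, 1.48 in Liver, 1.30 in Kidney, 1.28 in HRAS_MEL and 0.65 in Melan A, and below the reference in VA_MEF at -0.24, NRAS_MEL at -1.05, VA_475 at -1.14, 3T3 at -1.17, D6_MEL at -2.0 and the Heart array at -2.06. Among the arrays labelled as lines, only HRAS_MEL and Melan A were above the reference, and the latter carried the heart markers. The 3 Gstm1 probes did not agree: 2 followed this pattern, from -3.13 and -2.32 in D6_MEL to 1.84 and 1.70 in HRAS_MEL, and 1 stayed between -0.76 and 1.16 over all arrays.

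Gstm2, by 2 probes, stood at 2.91 in the array labelled Lung, 1.78 in HRAS_MEL, 1.71 in Melan A, 1.67 in Liver, 1.49 in Kidney and 0.64 in VA_MEF. It stood at -0.29 in NRAS_MEL, -0.59 in 3T3, -1.09 in VA_475, -1.13 in the Heart array and -1.97 in D6_MEL. Gstm6 had 3.95 in the array labelled Lung and 1.25 in HRAS_MEL as its highest values and -1.52 in D6_MEL as its lowest. Gstm7 was at 2.67 in the array labelled Lung and 1.48 in Melan A, with HRAS_MEL at 0.15 and 3T3 lowest at -1.73. Correlations among these 4 genes were 0.784 to 0.965 over the 11 arrays.

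Gsta4, an alpha-class GST that clears the lipid peroxidation product hydroxynonenal, stood at 2.0 in Kidney, 1.73 in the array labelled Lung, 1.14 in Melan A, 0.96 in HRAS_MEL and 0.87 in Liver. The other arrays were below the reference, with VA_MEF lowest at -3.46, the array labelled Heart at -2.54 and D6_MEL at -2.11. So HRAS_MEL stood with the arrays labelled Melan A, Kidney, Liver and Lung above the reference for Gsta4, as for Gstm1. For Gstm2 and Gstm6 VA_MEF was above it too, at 0.64 and 0.27, with the array labelled Liver at 0.34 for Gstm6.

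Other GST genes did not follow these. Gstp1, the pi-class enzyme common in cultured and tumour cells, was highest in the Heart array, at 3.02, then D6_MEL at 2.39, Lung at 2.28 and NRAS_MEL at 2.15, and between 0.00 (3T3) and 0.77 elsewhere, HRAS_MEL at 0.73 included. Gsto1, an omega-class enzyme, was highest in VA_475 at 1.79 and lowest in the Heart array, at -1.81, then D6_MEL at -1.51. Gstm5, with 10 values, ranged from -1.78 in the array labelled Liver to 0.90 in VA_475. Gstcd, which has a GST-like domain, ranged from -0.88 in the array labelled Lung to 0.78 in 3T3.

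**Figure D2:**
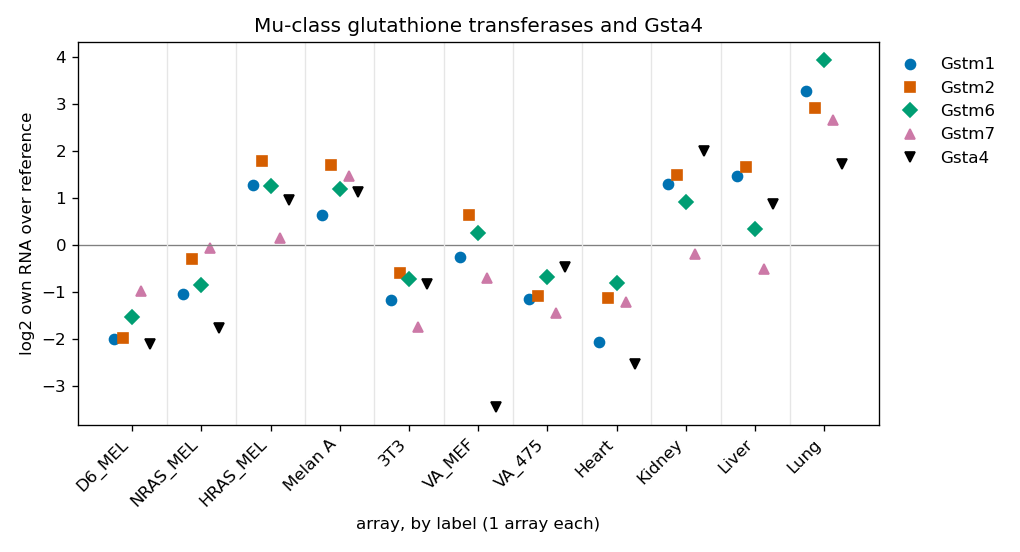
Levels of Gstm1, Gstm2, Gstm6, Gstm7 and Gsta4 (symbols) in each array (x axis, by label, 1 array each), as log2 of own RNA over reference on the y axis. Among the 3 MEL-labelled arrays all 5 genes are highest in HRAS_MEL, where Gstm2 reaches 1.78, against -1.97 in D6_MEL.

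Glutathione peroxidases reduce peroxides. Gpx3, the secreted plasma enzyme that kidney tubules are known to produce, had the widest range of all members, 11.6. It stood at 4.07 in Kidney, 0.00 in the array labelled Liver, -0.47 in Melan A and -5.18 in Lung, and between -7.53 (VA_MEF) and -6.24 (D6_MEL) in the other 7. The array labelled Lung, 2-fold above the reference for 20 members, was thus nearer to these 7 arrays than to Kidney, Liver or Melan A for Gpx3.

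Gpx1, the main cytosolic enzyme, stood at 3.02 in the array labelled Lung and 1.97 in Kidney and was below the reference in the other 9, with -0.45 in Liver, -0.63 in Heart and -1.96 in Melan A, and VA_475 lowest at -3.46. Gpx4, which protects membrane lipids from peroxidation, was at 2.40 in Kidney, 2.04 in Melan A, 1.32 in the array labelled Liver, 1.07 in HRAS_MEL and 1.0 in the Heart array. Its lowest values were -0.35 in 3T3 and -0.29 in VA_475.

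**Figure D3:**
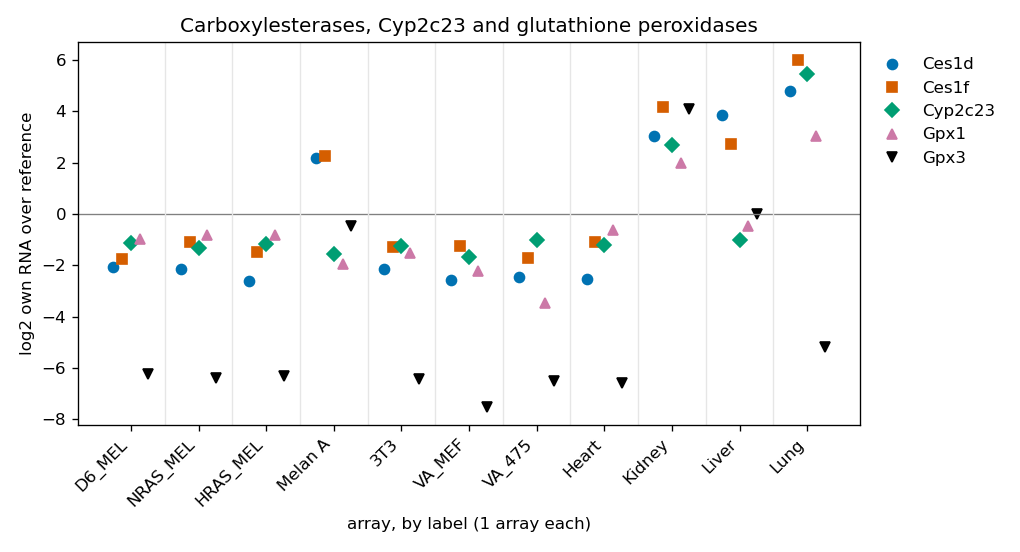
Levels of Ces1d, Ces1f, Cyp2c23, Gpx1 and Gpx3 (symbols) in each array (x axis, by label, 1 array each), as log2 of own RNA over reference on the y axis. Both Ces genes are above 2 in Melan A, Kidney, Liver and Lung and below -1 in the other 7, while Gpx3 is at 4.07 in Kidney and -5.18 in the array labelled Lung.

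Genes outside the families with the most similar profile over the 11 arrays were listed for the 3 members with the widest range. For Gpx3 they were Sorl1 (Pearson r 0.974), Emcn (0.954), Ankrd33b (0.953) and Atp1b1 (0.950). For Ces1f they were Sod1 (0.982), Nr1h3 (0.973), Tmem38b (0.970) and Cmtm6 (0.961), and for Ces1d they were Nr1h3 (0.975), Serping1 (0.969), Ube2o (0.966) and C1qa (0.966). These are the highest correlations among named genes that are no members, over 11 arrays that share a reference.

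The arrays labelled as lines were compared with those labelled as organs, the contrast that has several arrays on both sides. D6_MEL, NRAS_MEL, HRAS_MEL, Melan A, 3T3 and VA_MEF formed 1 side and Heart, Kidney, Liver and Lung the other. Most members had lower means in the lines, 29 of the 38 fitted, but none passed limma's test after Benjamini-Hochberg adjustment over 7083 genes (0 members and 0% of all genes). The median difference, lines minus organs, was -0.80 over members and -0.02 over all genes. At an unadjusted p under 0.05 there were 9 members, against 8.29% of genes. Of these 9, 8 were lower in the lines, a direction not counted over all genes. That median was -0.26 without the array labelled Lung, and the count was 3 without it (4.84% of genes), 4 without Kidney (4.39%), 15 without Melan A (17.4%) and 21 without Heart (16.7%). Different lines and different organs stand in for replicates here, so the p-values rest on how these differ among themselves.

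The smallest p belonged to Gpx1, with a mean of -1.38 ± 0.62 (SD, n = 6) in lines and 0.98 ± 1.80 (SD, n = 4) in organs. Its difference of -2.36 ± 0.69 (SE) had an adjusted p of 0.584 in limma, and it was the 1 member whose lines and organs did not overlap, against 1.17% of genes. Ces1f at -3.71, Akr1c19 at -1.73, Ces1d at -3.85 and Aldh16a1 at -0.85 followed among members with lower means in lines, all with an adjusted p of 0.584 in limma. The smallest p values among members with higher means in lines were those of Gstm5 at 1.13, Akr1b8 at 0.94, Akr1b10 at 0.58, Cyp1b1 at 0.59 and Gstcd at 0.39, and none passed.

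The comparison was repeated without the arrays labelled Heart and Melan A, whose heart markers went against both labels. This left 5 lines against 3 organs. Limma then called 4 of 38 members, or 10.5%, against 6.53% of 7089 genes, with 3 lower in the lines (3.7% of genes) and 1 higher (2.84%). Without the array labelled Heart alone, 2 members passed, against 0.72% of 7086 genes, namely Ces1d (adjusted p = 0.0435, limma) and Ces1f (adjusted p = 0.0464, limma). For all 4 members called without both arrays, each array left out stood nearer the opposite class. The array labelled Melan A was at 2.17 for Ces1d, 2.25 for Ces1f, -0.94 for Aldh1a2 and 0.40 for Akr1b8. The array labelled Heart was at -2.52, -1.09, -2.73 and 2.47. Leaving them out thus widened these differences, and it was chosen with earlier results of these data known. The calls and their adjusted p are therefore no independent support for a difference between lines and organs.

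Ces1d averaged -2.30 ± 0.26 (SD, n = 5) in these lines and 3.90 ± 0.89 (SD, n = 3) in the organs, a difference of -6.20 ± 0.37 (SE, limma adjusted p = 0.000287). Ces1f averaged -1.37 ± 0.26 and 4.30 ± 1.64, a difference of -5.66 ± 0.60 (SE, limma adjusted p = 0.00275). Aldh1a2 averaged -2.40 ± 0.56 and -0.46 ± 1.06, with a difference of -1.94 ± 0.48 (SE) and an adjusted p of 0.0478 in limma, close to the threshold. Akr1b8 was the member called in the other direction, at 2.14 ± 0.58 in lines and 0.39 ± 0.29 in organs, a difference of 1.75 ± 0.34 (SE, limma adjusted p = 0.0220). Limma fits 1 variance to both groups. For Ces1d, Ces1f and Aldh1a2 the 3 organs spread more than the 5 lines, so their SE and adjusted p are likely too small.

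The next members missed the threshold in limma: Gpx1 at -2.78 (adjusted p = 0.050, just above it), Aldh2 at -0.88 (0.0534), Gpx3 at -6.20 (0.0550), Akr1c19 at -2.21 (0.0554), Aldh7a1 at -2.12 (0.0584), Gstm1 at -2.65 (0.0611) and Gsta4 at -2.98 (0.0655). Gpx3 had a difference as large as that of Ces1d but an SE of 1.63, with organs from -5.18 to 4.07. Lines and organs did not overlap for 14 members, against 19.1% of genes. Of these 14, 12 were lower in the lines, a direction not counted over all genes. An unadjusted p under 0.05 was reached by 24 members, against 27.4% of genes. Gst genes had 6 of 9 members at that level and 0 called, Aldh 6 of 9 and 1 called, Akr 4 of 7 and 1 called, and Cyp 3 of 7 and 0 called, while both Ces genes were called and 3 of 3 Gpx genes reached that level with 0 called.

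**Figure D4:**
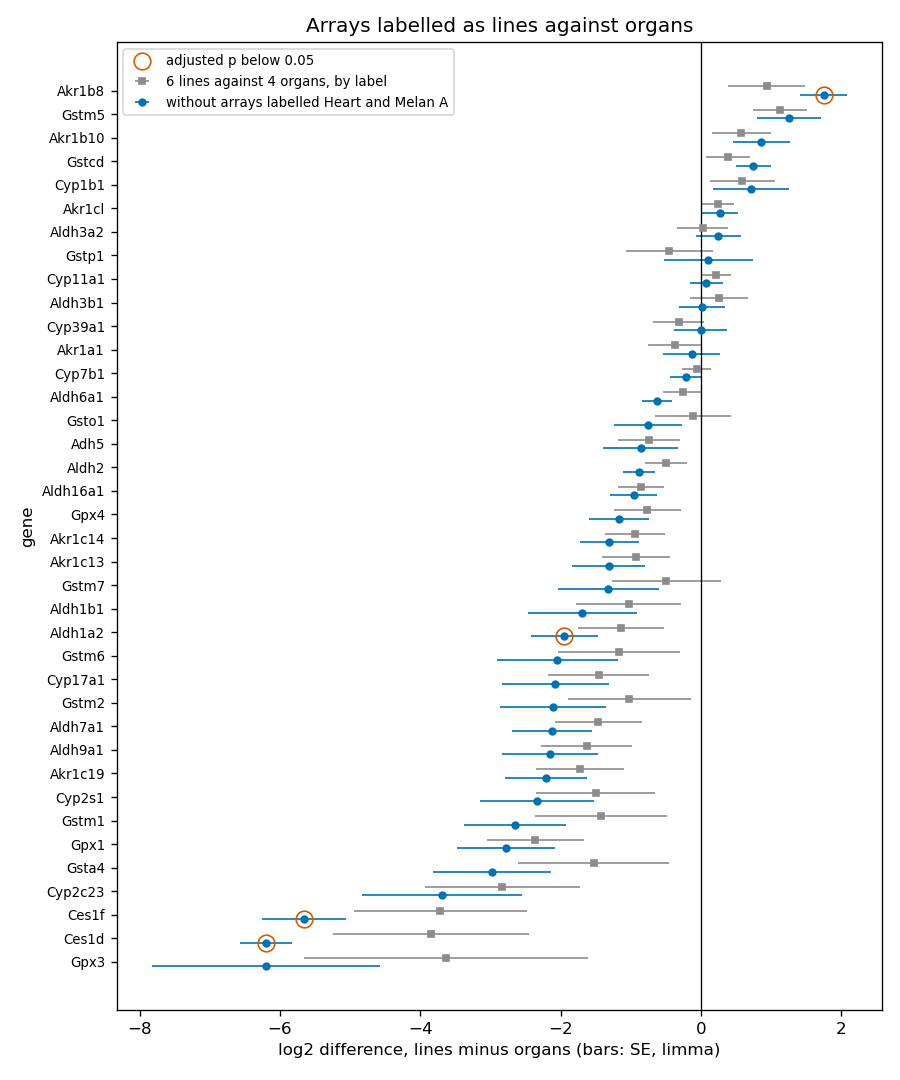
Difference of each of 38 members (y axis) between arrays labelled as lines and as organs, in log2 units on the x axis, with bars for the SE from limma, by label (grey squares) and without the arrays labelled Heart and Melan A (blue circles). Orange rings mark the 4 members with an adjusted p below 0.05: Ces1d, Ces1f and Aldh1a2 to the left and Akr1b8 to the right of 0.

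Other genes of the pathway were taken from 4 lists. By label, limma called 0 of their genes, with 5 of 13 in the glutathione and antioxidant list, 4 of 13 other detoxification enzymes and P450 partners, 2 of 4 transporters and 0 of 5 receptors and regulators at an unadjusted p under 0.05, against 8.29% of all genes. The 2 transporters went in opposite directions, Abcc3 at -2.22 and Abcc1 at 0.52, and the other genes at that level were lower in the lines. Without the arrays labelled Heart and Melan A the called counts were 2 of 13, 2 of 13, 1 of 4 and 0 of 5, all lower in the lines, against 6.53% of all genes called. They were superoxide dismutase Sod1 at -2.60 and malic enzyme Me1 at -1.22, the sulphurtransferase Tst at -3.00 and the microsomal transferase Mgst1 at -4.86, and the efflux pump Abcc3 at -3.03. For each of these the organs also spread more than the lines, so their adjusted p are likely too small. Catalase (Cat) at -3.62 and Gclc, the rate-limiting enzyme of glutathione synthesis, at -2.12 did not pass, with adjusted p of 0.0524 and 0.0527 in limma. The median differences of the 4 lists were -1.05, -1.28, -1.82 and -0.14.

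The series title asks about RAS isoforms in melanocytes, and the RAS-labelled arrays were set against D6_MEL as single arrays, with no test. HRAS_MEL differed from D6_MEL at least 2-fold in 7 of 39 members, 6 higher and 1 lower, against 11.1% of 7078 genes (5.23% higher and 5.91% lower). Gst genes made up 5 of the 6 higher members and the 1 lower. Gstm2 was 3.75 higher on the log2 scale, or 13.5-fold, Gstm1 3.27 or 9.68-fold, Gsta4 3.07 or 8.40-fold, Gstm6 2.78 or 6.86-fold, and Gstm7 1.13 or 2.18-fold. Gstp1 was the lower member, at -1.66 or 3.17-fold, and Cyp1b1, at 1.16, was the 1 member outside the Gst family.

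The median difference over the 9 Gst genes was 1.13, while that over all 39 members was -0.05 and over all genes -0.01. No Aldh, Akr, Ces, Gpx or Adh gene was 2-fold apart, and the family medians were -0.07 for 10 Aldh, -0.12 for 7 Akr, -0.14 for 2 Ces and 0.16 for 3 Gpx genes. The 3 Gstm1 probes differed by 4.97, 4.02 and 0.83, so the third was under 2-fold and the mean of 3.27 matches none of them. The Gstm2 probes differed by 4.13 and 3.37. With the Heart array substituted for D6_MEL, 9 members were 2-fold apart, against 11.5% of 7077 genes, and 6 of the 7 were so in the same direction. The exception was Cyp1b1, at 0.34 in HRAS_MEL and -0.49 in the Heart array.

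NRAS_MEL differed from D6_MEL in 3 of 37 members, against 6.86% of 7069 genes, with all 3 higher (2.46% of genes) and 0 lower (4.4%). Over both directions this share of members, 8.11%, is near that of all genes. Gstm2 was 1.68 higher, or 3.21-fold, Gsto1 1.57, or 2.97-fold, and Cyp1b1 1.36, or 2.57-fold. The Gst median was 0.79 over 8 genes. With the Heart array substituted for D6_MEL, 5 members were 2-fold apart, against 9.22% of 7070 genes, and 2 of the 3 were so in the same direction. Gstm2 was the one that was not, at -0.29 in NRAS_MEL and -1.13 in the Heart array. The HRAS_MEL and NRAS_MEL differences share the D6_MEL array, in which Gstm2, Gsto1 and Cyp1b1 were at -1.97, -1.51 and -0.82.

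Between the RAS-labelled arrays, 6 of 37 members were at least 2-fold apart, against 9.35% of 7073 genes. Gsta4 at -2.72, Gstm1 at -2.32, Gstm6 at -2.09 and Gstm2 at -2.07 were lower in NRAS_MEL than in HRAS_MEL (5.08% of genes). Gstp1 at 1.42 and Cyp2s1 at 1.01 were higher in NRAS_MEL (4.27%). The array labelled Heart, whose profile over all genes correlated with that of D6_MEL at 0.917, differed from it in 1 of 38 members, Gstm5, lower at -1.68, against 2.09% of 7076 genes (1.23% lower). That pair shows how far 2 arrays with close profiles differ in these genes, from 0.84 for Gstm2 down to -1.68, but it is no replicate. Both RAS-labelled arrays were less close to D6_MEL, at 0.792 for NRAS_MEL and 0.643 for HRAS_MEL. With the fibroblast-labelled arrays 3T3 and VA_MEF, D6_MEL correlated at 0.693 and 0.653, above its value with HRAS_MEL and below that with NRAS_MEL. Whether the Gst differences exceed those between arrays as far apart as HRAS_MEL and D6_MEL was not tested.

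Of the pathway lists, HRAS_MEL against D6_MEL had 2 of 13 glutathione and antioxidant genes 2-fold higher (5.23% of all genes) and 0 lower (5.91%). The higher ones were Glrx, at 0.09 against -1.94, and Gclc, at 1.43 against -0.51. Of other detoxification enzymes 4 of 13 were higher and 2 lower. Xanthine dehydrogenase (Xdh) stood at 3.30 against -0.67, cytochrome b5 (Cyb5a) at 1.29 against -0.81, Mgst1 at -1.51 against -3.40 and Mgst3 at -0.04 against -1.69. Cyb5r3 and Cyb5b were the lower ones, at 0.50 and 0.33 against 2.03 and 1.34. In NRAS_MEL the counts were 0 of 13 for the first list, and 1 higher and 1 lower of 13 for the other, against 2.46% of all genes higher and 4.4% lower. Of the 5 receptors and regulators 1 was higher in NRAS_MEL, Mafg, a small partner protein of NRF2, at 0.88 against -0.16, and 0 were 2-fold apart in HRAS_MEL. Of the 4 transporters 0 were 2-fold apart in either. Nfe2l2, which encodes NRF2, stood at 0.93 in D6_MEL, 0.29 in NRAS_MEL and 1.02 in HRAS_MEL.

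**Figure D5:**
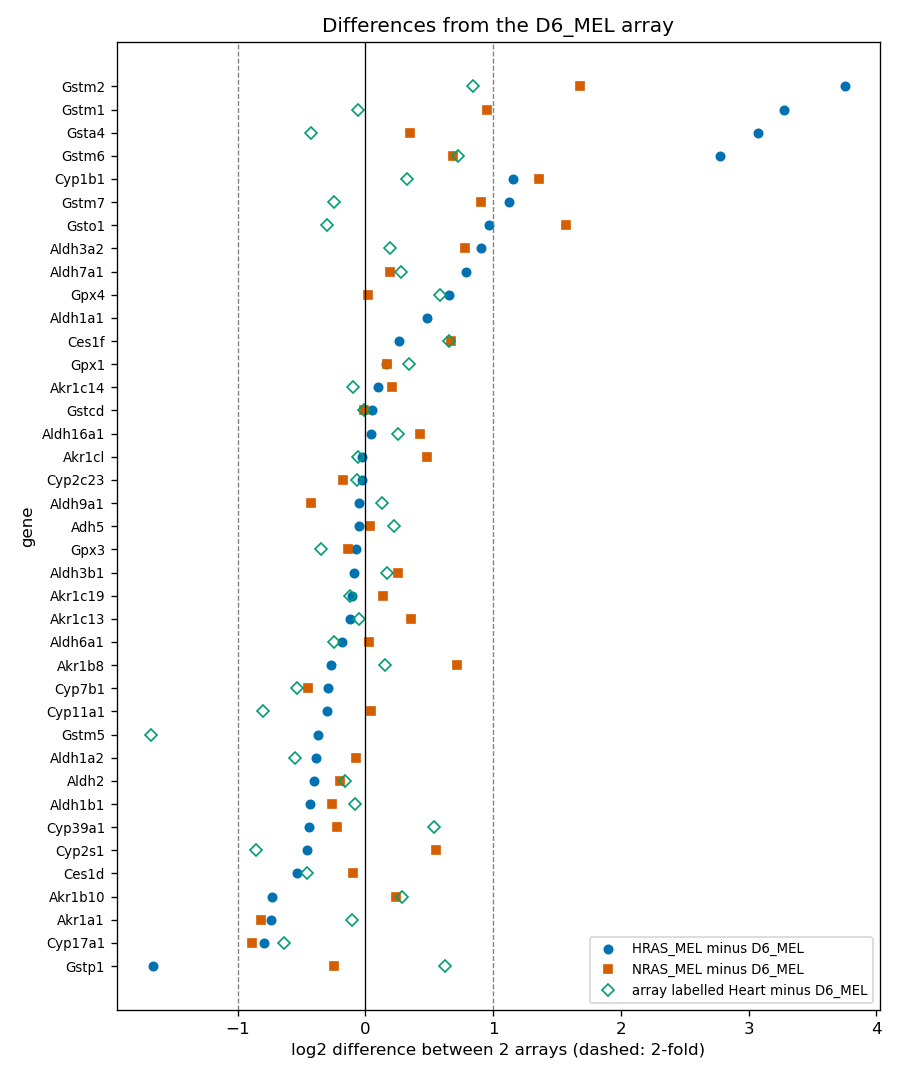
Difference of each member (y axis) from the D6_MEL array, in log2 units on the x axis, for HRAS_MEL (circles), NRAS_MEL (squares) and the array labelled Heart (open diamonds), with dashed lines at 2-fold and 1 array each. Gstm2, Gstm1, Gsta4 and Gstm6 lie between 2.78 and 3.75 for HRAS_MEL, and Gstp1 at -1.66.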

How the data were processed

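RNA of 11 mouse samples was measured on 2-colour arrays, 1 per label. The authors deposited a table of channel log ratios, read here as log2 values, with 15247 probes (15170 to 15210 measured per array). The sources used here do not give its base, direction, background correction or normalization. Column medians lay between -0.03 and 0.03. Intensities were not analysed here, so signal over background was not known. Precision is limited by the number of arrays.

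Each array was centred on its median, the sign turned and the probes of a gene averaged. Of the probes, 9600 had 1 gene symbol in the platform annotation, 214 had several and 5433 were not listed there. By gene number, 9492 were found in a RefSeq table (GRCm38.p6), which changed 0 symbols. Of the 39 members, 34 had 1 probe. The median SD between probes of a gene, over all genes with several, was 0.267.

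Classes were compared by limma 3.58.1 in R 4.3.3 (lmFit, eBayes, Benjamini-Hochberg over all genes fitted, threshold 0.05), requiring values on 4 line and 3 organ arrays and leaving out VA_475, whose cell type the labels do not give. The script was run on simulated data with the same spread for every gene and in both classes. These data lack that equal spread, so the run does not show how the test performs on them. Arrays compared singly were counted past 2-fold without a test. Members, lists, tests and alternatives, the exclusion of arrays among them, were chosen with earlier results of these data known. Genes given array by array are mainly the 20 with the widest range, the 2 widest per family and up to 4 leading each array. For the classes, the 5 smallest p in each direction are named, and up to 6 genes in each direction past 2-fold for single arrays.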

Additional observations from a re-analysis of the deposited data

Results flagged for a closer look

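In 6 of 69 groups of arrays tested over 35 members, 1 array lay far from the rest of its labelled class by Dixon's criterion. For unselected genes, chance alone meets it in about 1 in 20 groups. These members were mainly chosen from the same values for a wide range or for leading 1 array. That rate therefore cannot be set against this count. The array labelled Melan A was above the other 5 lines for Ces1d, at 2.17 against -2.06 for the nearest, Ces1f, at 2.25 against -1.08, Gpx3, at -0.47 against -6.24, Aldh3b1, at 1.60 against 0.14, and Aldh1b1, at -0.90 against -2.39. The array labelled Lung was above the other 3 organs for Aldh1b1, at 1.37 against -2.15.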

How the results depend on the processing

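No paired analysis was possible because each label had 1 array and no replicate number joined the groups. The count of members called between lines and organs was 0 by label and stayed 0 without centring, with quantile normalization, with 1 probe per gene, with VA_475 among the lines, with the 4 melanocyte-line labels alone and with a trended, robust prior. It was 4 without the arrays labelled Heart and Melan A, and 0 to 2 when each array was left out in turn, with 2 only without the array labelled Heart. Leaving out all 5 arrays whose markers went against their labels left 1 organ and was not run. Members at least 2-fold apart between NRAS_MEL and D6_MEL rose from 3 to 5 with 1 probe per gene, 9 if the values are natural logarithms, 11 at 1.5-fold and 5 with the Heart array substituted for D6_MEL. For HRAS_MEL the 7 became 13 with natural logarithms and 14 at 1.5-fold. For NRAS_MEL minus HRAS_MEL the 6 became 11 at 1.5-fold, and for the array labelled Heart minus D6_MEL the 1 became 2 with 1 probe per gene, 5 with natural logarithms and 8 at 1.5-fold. The looser threshold and the natural base admit smaller differences by construction. With 1 probe per gene, NRAS_MEL against D6_MEL gained Gstm1, at -1.58 against -3.13, and Akr1a1, at -1.335 against 0.35. The array labelled Heart against D6_MEL gained Gstm2, at -0.79 against -2.41. For the changes with the Heart array substituted the cause was not tested. Of 77 family medians, 9 moved by over the median SD between probes with quantile normalization, 6 with 1 probe per gene and 0 without centring.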
